A study of Mus musculus with 8 samples.

Results

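The cadherins described here are the 6 members of the family that were named for Schwann cells: Cdh1 (E-cadherin), Cdh2 (N-cadherin), Cdh6, Cdh11, Cdh13 (T-cadherin) and Cdh19. They were found as every probe set that the array platform's annotation gives to 1 of these symbols alone, which yielded 12 of 45101 probe sets and 6 of 18194 genes. The RNA came from mouse sciatic nerve, and each of the 4 groups had 2 arrays. The groups were c-Jun mutant cut nerve, control cut nerve, c-Jun mutant uncut nerve and control uncut nerve. Cut nerve means a 10 mm piece of the distal stump taken 7 days after the sciatic nerve of an adult mouse was severed, and uncut nerve is the intact nerve of the other side. Each array held RNA from nerves pooled over 4/6 mice, and the 2 pools of a group were independent, so the spread is one between pools and the number of arrays limits the precision. The labels call the genotypes c-Jun knockout and wild type and give no strain or allele. In the published study, c-Jun is removed by a Cre that the myelin protein zero promoter drives in Schwann cells, so other cells of the nerve keep the gene. The labels name the tissue as Schwann cells, but the material was whole nerve, and values for other cell types are given below.

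Cadherins are cell surface proteins that bind the same kind of cadherin on a neighbouring membrane when calcium is present. The tail of a classical cadherin inside the cell holds p120-catenin and beta-catenin, and alpha-catenin joins that complex to actin. In myelinating Schwann cells E-cadherin lies in autotypic adherens junctions, which bind a cell's own membrane layers to each other at the paranodes, the Schmidt-Lanterman incisures and the mesaxons. N-cadherin is found where immature Schwann cells touch axons and each other. Cdh6, Cdh11 and Cdh19 belong to the type II subfamily and are known from neural crest and its derivatives, and Cdh11 also from mesenchymal cells. Cdh13 is held to the membrane by a lipid anchor and lacks the tail that binds catenins, so the name classical cadherin does not strictly cover it.

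Values are log2 signals, so a difference of 1 is a 2-fold difference, and a gene is represented by its brightest probe set among those above the median of their array on at least 2 arrays. A gene passed the test when its p-value from limma, a linear model fitted to all 12094 genes so retained, was under 0.05 after Benjamini-Hochberg adjustment over those genes. Jun itself had log2 signals of 10.39 and 10.80 in c-Jun mutant cut nerve and 11.88 and 11.96 in control cut nerve, a difference of -1.33 (SE 0.14, adjusted p = 0.00866). That call was lost without either control cut replicate (adjusted p = 0.0631 and 0.0574) and with only the cut arrays fitted (0.0580). In uncut nerve Jun had 9.62 and 9.59 in c-Jun mutants and 9.58 and 9.70 in controls. After injury Jun rose by 0.99 in c-Jun mutants (adjusted p = 0.0015) and by 2.28 in controls (adjusted p = 2.56e-05). The first rise minus the second was -1.29 and did not pass (adjusted p = 0.0726). Over all genes, replicate arrays correlated at r of 0.984 to 0.989, c-Jun mutant with control arrays at 0.977 to 0.987 within an injury state, and cut with uncut arrays at 0.854 to 0.894. Array medians lay between 6.59 and 6.65. Of the cadherins, 5 of 6 were tested, and Cdh6 was too dim to enter.

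E-cadherin RNA fell deeply in the distal stump of control mice and was higher in the stump of c-Jun mutants. Cdh1, covered by 1 probe set, had log2 signals of 8.43 and 8.27 in c-Jun mutant cut nerve, 6.23 and 5.58 in control cut nerve, 11.34 and 11.35 in c-Jun mutant uncut nerve, and 11.65 and 11.47 in control uncut nerve. No group's range overlapped another's. From the top, the order was control uncut, c-Jun mutant uncut, c-Jun mutant cut and control cut nerve, and only the uppermost pair did not differ beyond the spread. Both control cut arrays lay below their array's median, a range in which array signals are compressed, so the size of the fall in controls is uncertain and may be understated.

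In control mice Cdh1 fell by 5.65 on the log2 scale (95% confidence interval -6.11 to -5.19, adjusted p = 2.48e-06), which is 50.3-fold lower. Of the 12094 genes tested, it held place 3 from the lowest change. In c-Jun mutants the difference was -3.0 (95% confidence interval -3.46 to -2.54, adjusted p = 3.93e-05), or 8.01-fold lower, and it held place 45. A bulk nerve sample cannot tell fewer cells of a type from less RNA per cell.

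Between the cut nerves Cdh1 was 5.42-fold higher in c-Jun mutants, a log2 difference of 2.44 (95% confidence interval 1.98 to 2.90, adjusted p = 0.00399). It held place 2 from the highest among all genes in that comparison. Between the uncut nerves the difference was -0.21 (95% confidence interval -0.67 to 0.25, adjusted p = 1.0). The effect of injury was 2.65 less negative in c-Jun mutants than in controls (SE 0.28, 95% confidence interval 2.00 to 3.30), and this interaction passed the test at an adjusted p of 0.0365. The interaction missed the threshold when any of 5 arrays was left out: c-Jun mutant cut replicate 1 (adjusted p = 0.119), either c-Jun mutant uncut replicate (0.137 and 0.145) or either control uncut replicate (0.162 and 0.135). The adjusted p over all its alternatives ran from 0.0144 to 0.162, and the estimate stayed between 2.33 and 2.97 when single arrays were left out.

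**Figure D1:**
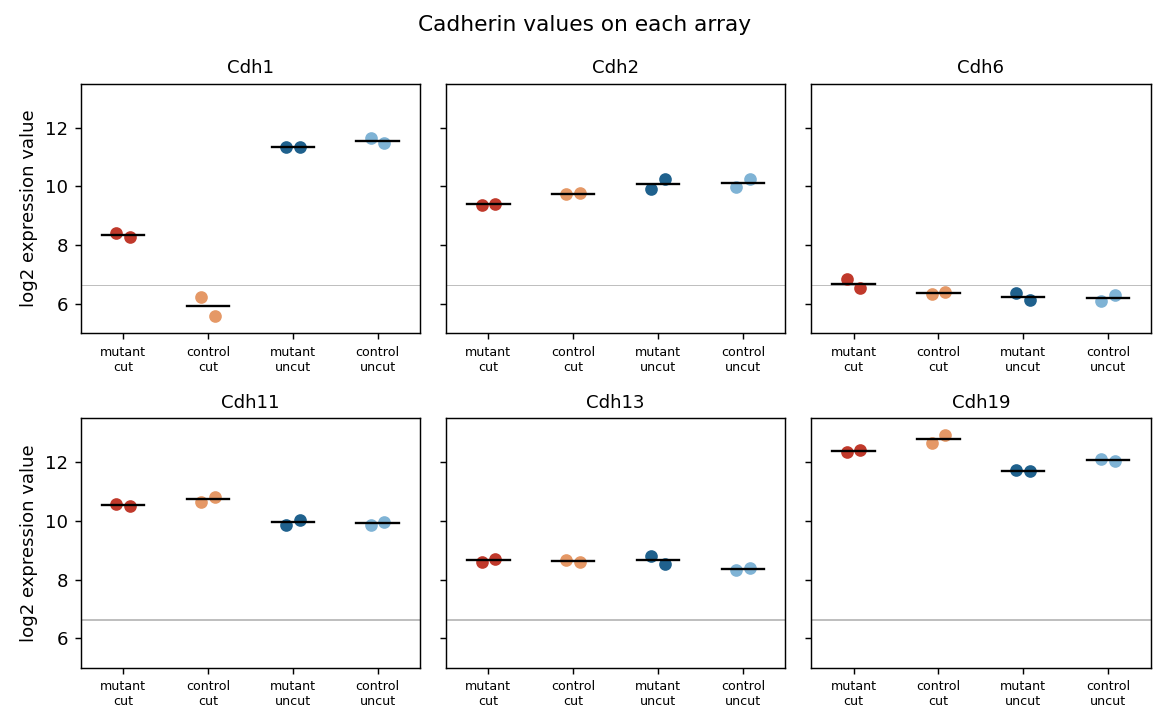
Log2 signal of the 6 cadherins on each of the 8 arrays, by group, with 1 point per array and a bar at the group mean. Cdh1 spans 5.58 to 11.65 across the groups, while the next widest range is that of Cdh19, from 11.70 to 12.92.

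N-cadherin, the neural cadherin closest in kind to E-cadherin among the 6, fell in c-Jun mutants. By its brighter probe set Cdh2 had log2 signals of 9.37 and 9.40 in c-Jun mutant cut nerve, 9.74 and 9.76 in control cut nerve, 9.91 and 10.27 in c-Jun mutant uncut nerve, and 9.99 and 10.26 in control uncut nerve. Both cut groups lay below both uncut groups, and within cut nerve the c-Jun mutant arrays lay below the control arrays. The injury difference was -0.70 in c-Jun mutants (95% confidence interval -1.04 to -0.36, adjusted p = 0.00787) and -0.38 in controls (95% confidence interval -0.71 to -0.04, adjusted p = 0.0722). The second probe set of Cdh2 gave -0.51 in c-Jun mutants (adjusted p = 0.0328 among probe sets) and 0.06 in controls, so the fall in c-Jun mutants was seen by both probe sets and the lower value in controls by 1 of them. The call in c-Jun mutants was lost without the 2 cut arrays of higher milk protein signal, described below (-0.71, adjusted p = 0.0517). The c-Jun mutant minus control difference in cut nerve was -0.36 by the brighter probe set (adjusted p = 0.531) and -0.46 by the other (adjusted p = 0.324 among probe sets), and neither passed. The interaction was -0.32 (95% confidence interval -0.80 to 0.15, adjusted p = 0.997).

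Cdh19, the type II cadherin of the Schwann cell lineage, rose after injury in both genotypes. Its log2 signals were 12.37 and 12.41 in c-Jun mutant cut nerve, 12.66 and 12.92 in control cut nerve, 11.73 and 11.70 in c-Jun mutant uncut nerve, and 12.12 and 12.04 in control uncut nerve. The c-Jun mutant arrays lay below the control arrays in both injury states, with no overlap between any of the 4 groups. The injury difference was 0.67 in c-Jun mutants (adjusted p = 0.00314) and 0.70 in controls (adjusted p = 0.00208), and the interaction was -0.03 (95% confidence interval -0.40 to 0.34). The genotype difference was -0.40 in cut nerve (95% confidence interval -0.66 to -0.14, adjusted p = 0.246) and -0.37 in uncut nerve (95% confidence interval -0.63 to -0.11, adjusted p = 1.0), and neither passed.

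Cdh11, or OB-cadherin, a cadherin of mesenchymal cells, also rose by its brighter probe set. That probe set had log2 signals of 10.59 and 10.51 in c-Jun mutant cut nerve, 10.64 and 10.84 in control cut nerve, 9.88 and 10.04 in c-Jun mutant uncut nerve, and 9.88 and 9.98 in control uncut nerve. All 4 cut arrays lay above all 4 uncut arrays. The injury difference was 0.59 in c-Jun mutants (adjusted p = 0.00552) and 0.81 in controls (adjusted p = 0.00111). The second probe set disagreed, with differences of -0.10 in c-Jun mutants and -0.06 in controls. When the probe sets were averaged, the c-Jun mutant difference was 0.25 (adjusted p = 0.0995) and no longer passed, and the control difference was 0.38. The mean log2 signal of 10 fibroblast markers was also higher in cut nerve. In c-Jun mutants it was 12.08 and 11.89 in cut and 11.71 and 11.62 in uncut nerve. In controls it was 12.20 and 12.11 in cut and 11.64 and 11.72 in uncut nerve. Of the 10 markers, 4 passed as higher in each genotype and 6 did not pass, with a median difference of 0.23 in each. Over all genes 18.1% passed as higher in c-Jun mutants and 22.8% in controls. The part of fibroblasts in the Cdh11 result was not tested.

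Cdh13, known from vessel walls, did not pass in any comparison by its brighter probe set. Its log2 signals were 8.61 and 8.72 in c-Jun mutant cut nerve, 8.67 and 8.60 in control cut nerve, 8.80 and 8.54 in c-Jun mutant uncut nerve, and 8.35 and 8.38 in control uncut nerve. The control uncut arrays were the lowest, and the other 3 groups overlapped. The injury difference was 0.00 in c-Jun mutants (95% confidence interval -0.26 to 0.27, adjusted p = 0.991) and 0.27 in controls (95% confidence interval 0.01 to 0.53, adjusted p = 0.0957). Another retained probe set gave 0.22 in c-Jun mutants (adjusted p = 0.311 among probe sets) and 0.46 in controls (adjusted p = 0.0482 among probe sets), so its control difference was past the threshold. The remaining 2 of its 4 probe sets were too dim to be tested.

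Cdh6, a cadherin of the neural crest, was above its array's median on 1 array by its brighter probe set and on 0 arrays by the other. In a fit of all 18194 genes with no filter, its brighter probe set had log2 signals of 6.85 and 6.52 in c-Jun mutant cut nerve, 6.34 and 6.40 in control cut nerve, 6.37 and 6.12 in c-Jun mutant uncut nerve, and 6.09 and 6.28 in control uncut nerve. The c-Jun mutant cut arrays were the highest, and c-Jun mutant cut replicate 1 alone exceeded its array's median. The injury difference was 0.44 in c-Jun mutants (adjusted p = 0.0592) and 0.19 in controls (adjusted p = 0.409), and the genotype difference in cut nerve was 0.31 (adjusted p = 0.680).

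Among all genes a call after injury was common and a call between genotypes was rare. After injury in c-Jun mutants 4 of the 5 tested cadherins passed, Cdh11 and Cdh19 higher and Cdh1 and Cdh2 lower, where 36% of all genes passed, 18.1% higher and 17.8% lower. In controls 3 of 5 passed, Cdh11 and Cdh19 higher and Cdh1 lower, where 40.3% of all genes passed, 22.8% higher and 17.5% lower. Between c-Jun mutant and control cut nerve 1 of 5 passed, which was Cdh1, and 1.09% of all genes passed, 0.380% higher, as Cdh1 was, and 0.711% lower. The interaction was passed by 1 of 5, again Cdh1, and by 0.165% of all genes, with 0.0661% in the same direction as Cdh1. Between the uncut nerves limma called 0 of the 12094 genes, of which 322 had an unadjusted p under 0.05. Cdh13 (unadjusted p = 0.0316) and Cdh19 (unadjusted p = 0.0121) were among those 322.

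**Figure D2:**
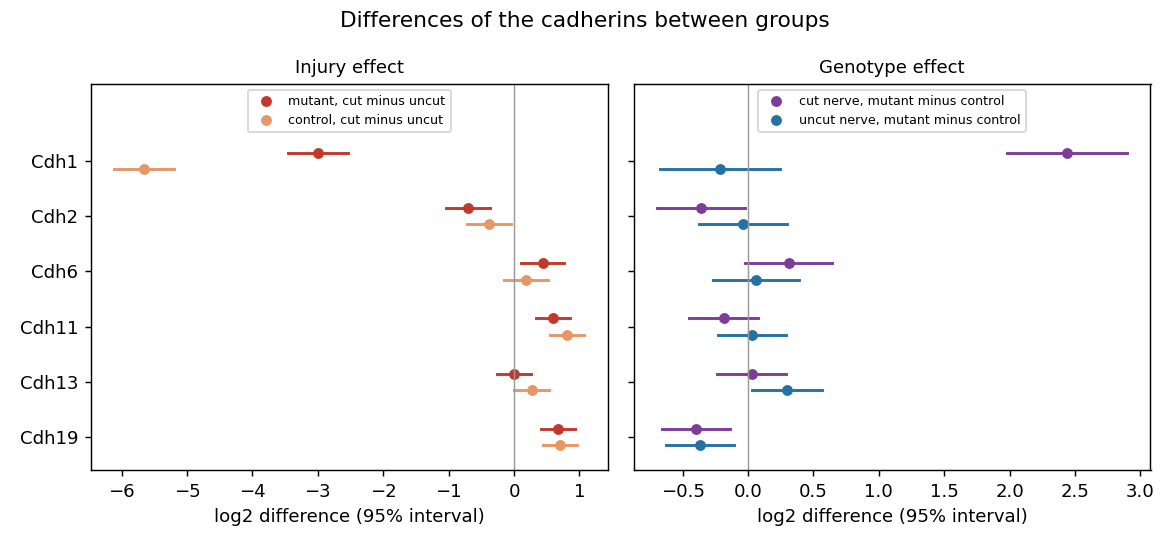
Differences of the 6 cadherins in log2 units after injury (left) and between genotypes (right), as points with 95% confidence intervals, Cdh6 from the fit with no filter. The interval of Cdh1 lies furthest from 0 in both injury comparisons, and between the cut nerves its interval of 1.98 to 2.90 is the only one of the 6 that belongs to a called difference.

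The loss of E-cadherin was set directly against each other cadherin by taking Cdh1 minus the other gene within each array and comparing the 4 cut with the 4 uncut arrays. Only the difference between injury states has meaning here, since signals of different probe sets are not on a common scale. Relative to Cdh19, the cut minus uncut difference of Cdh1 was -5.02 on the log2 scale, with -3.67 in c-Jun mutants and -6.36 in controls. It was -5.03 relative to Cdh11 and -4.46 relative to Cdh13. Relative to Cdh2, the other cadherin with lower values in cut nerve, it was -3.79, with -2.30 in c-Jun mutants and -5.28 in controls. Each of these 4 differences had a two-sided exact permutation p of 0.0286 over 70 divisions of the arrays, also after adjustment over the 4, and 0.0286 is the smallest that such a design can give. When arrays were exchanged only within a genotype, the exact permutation p was 0.0556 for each, the smallest that 36 divisions allow. All 4 differences share the same Cdh1 values, and the members were chosen with earlier results of these data known. These p-values therefore describe a complete separation of the arrays and are not independent tests. Cdh6 was left out as too dim.

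Cdh1 was also compared with the genes that control nerves lost as deeply. In controls 21 genes, Cdh1 included, fell at least 16-fold after injury. Of these, 3 were called higher in c-Jun mutant than in control cut nerve, and 0 were called lower, where 0.380% of all genes were higher and 0.711% lower. The 21 were chosen by their low control cut values, which also enter the comparison of the cut nerves and the interaction. That choice favours positive values in both, so the counts among the 21 are descriptions. Positive interactions were called for 0.0661% of all genes. Beside Cdh1, the genes called higher were Lrrtm4, a leucine-rich repeat membrane protein known from synapses (2.20, adjusted p = 0.00571), and Plekha4, a pleckstrin homology domain protein (1.41, adjusted p = 0.0269). The call of Plekha4 was lost without c-Jun mutant cut replicate 1, either control cut replicate or either control uncut replicate. It was also lost with its probe sets averaged (0.98, adjusted p = 0.108) and with only the cut arrays fitted (adjusted p = 0.0826). Of the 21, Cdh1 and Lrrtm4 had a called positive interaction, which for Lrrtm4 was 2.40 (adjusted p = 0.0365) and was lost without any 1 array other than c-Jun mutant cut replicate 2 (adjusted p up to 0.171). Lrrtm4 was dim in cut nerve, at a mean of 6.12 in c-Jun mutants, below the array medians, and 3.91 in controls, below the 25th percentile of those arrays (4.97 and 4.98), so the size of its differences is uncertain. Ncmap, a myelin membrane protein of peripheral nerve, had injury differences of -6.83 in c-Jun mutants and -6.98 in controls. Fa2h, which makes the hydroxylated fatty acids of myelin lipids, fell, with differences of -5.38 in c-Jun mutants and -5.48 in controls. Drp2, which links the outer Schwann cell membrane to periaxin, fell by 5.43 in either genotype. The interactions of these myelin genes were 0.15, 0.10 and 0.01 and did not pass.

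**Figure D3:**
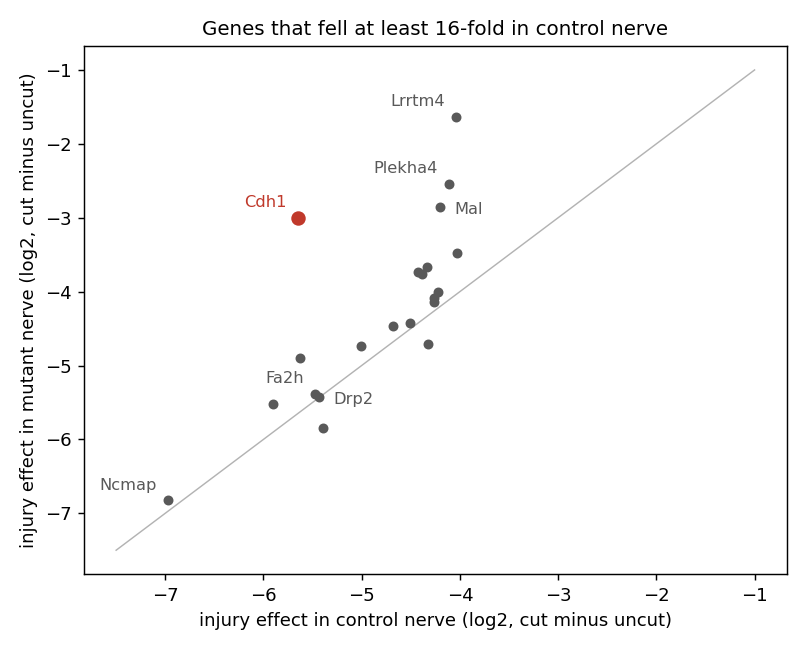
Injury difference in c-Jun mutants against that in controls, both in log2, for the 21 genes that fell at least 16-fold in controls, with a line of equal change. Most of the 21 lie near the line, while Cdh1 (-3.0 in c-Jun mutants, -5.65 in controls) and Lrrtm4 (-1.64 and -4.04) lie furthest above it. The choice of the 21 by the control difference favours places above the line.

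Likeness of pattern was measured as the root mean square difference of log2 signals over the 8 arrays after each gene's own mean was removed, with no test. For Cdh1 the nearest genes were Mal, a proteolipid of compact myelin (0.634), Plekha4 (0.649), Prr15 (0.756), Lrrtm4 (0.757) and Slc6a15, an amino acid transporter (0.783). Mal had injury differences of -2.85 in c-Jun mutants and -4.20 in controls, and its genotype difference in cut nerve was 1.15 (adjusted p = 0.149). It was 1.84 without the 2 cut arrays of higher milk protein signal, which left 1 array in each cut group. The nearest genes of the other members, whose signals varied less, were closer. For Cdh2 they were Suco (0.0668), Ston2 (0.0875) and Clstn3 (0.0902), for Cdh11 Tbc1d31 (0.0467), Arhgap9 (0.0526) and Ppp4c (0.0641), for Cdh13 Gtf2ird2 (0.0525), Capn1 (0.0663) and Bola3 (0.0712), and for Cdh19 Col2a1 (0.119), Jpt2 (0.126) and Emp1 (0.129).

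The core catenins that bind the tail of classical cadherins did not pass the test after injury in controls, where Cdh1 fell most. Of 14 tested catenins and cadherin-bound proteins, 8 were lower and 0 higher after injury in c-Jun mutants, and 5 were lower and 0 higher in controls. Over all genes the shares were 17.8% lower and 18.1% higher in c-Jun mutants and 17.5% lower and 22.8% higher in controls, which is also the background of the counts after injury that follow. Their median difference was -0.38 in c-Jun mutants and -0.24 in controls, where the median over all genes was 0.00 and 0.05. Beta-catenin, Ctnnb1, had log2 signals of 13.48 and 13.42 in c-Jun mutant cut nerve, 13.36 and 13.47 in control cut nerve, 13.42 and 13.36 in c-Jun mutant uncut nerve, and 13.43 and 13.45 in control uncut nerve, and the cut arrays overlapped the uncut arrays. Alpha-catenin, Ctnna1, differed by -0.12 in c-Jun mutants and -0.28 in controls (adjusted p = 0.360 and 0.0526). Its control difference was called with quantile normalization, the filter at the 75th percentile or a trended robust variance (adjusted p = 0.0365, 0.0409 and 0.0235). p120-catenin, Ctnnd1, which steadies cadherins at the membrane, fell by 0.44 in c-Jun mutants (adjusted p = 0.0135), and its difference in controls was -0.20 (adjusted p = 0.153). The c-Jun mutant call was lost without c-Jun mutant cut replicate 2, c-Jun mutant uncut replicate 2 or the milk protein arrays and with averaged probe sets (adjusted p up to 0.113). The members that fell most in both genotypes were not the core catenins. Ctnnal1, or alpha-catulin, fell, with differences of -3.20 in c-Jun mutants and -3.53 in controls, and Ctnna3, the alpha-T-catenin, fell, with differences of -2.27 in c-Jun mutants and -2.66 in controls. Arvcf, a relative of p120-catenin, fell, with differences of -1.47 in c-Jun mutants and -0.95 in controls. None of the 14 passed between c-Jun mutant and control cut nerve, where 1.09% of all genes passed.

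Among nectins, afadin and other adherens junction scaffolds, 7 of 13 tested genes fell and 1 rose after injury in c-Jun mutants, and 5 fell and 2 rose in controls. The median difference was -0.37 in c-Jun mutants and -0.25 in controls. Plekha7, which ties p120-catenin to microtubules, fell, with differences of -3.0 in c-Jun mutants and -3.25 in controls, or -1.51 and -1.60 with its probe sets averaged. Lmo7, an afadin-binding protein, fell, with differences of -0.81 in c-Jun mutants and -1.64 in controls, and Tjp1 (ZO-1), a scaffold of tight and adherens junctions, fell, with differences of -0.71 in c-Jun mutants and -0.83 in controls. The c-Jun mutant call of Lmo7 was lost without either c-Jun mutant cut replicate, c-Jun mutant uncut replicate 1 or the milk protein arrays (adjusted p up to 0.0667). Shroom3, an actin-binding protein of apical junctions, was the 1 gene of this list called between the cut nerves. It had log2 signals of 8.71 and 8.66 in c-Jun mutant cut nerve and 9.79 and 9.69 in control cut nerve, a difference of -1.05 (adjusted p = 0.0194). That call was lost without any 1 of the cut arrays or the control uncut arrays and with averaged probe sets (-0.72, adjusted p = 0.0573), with an adjusted p of 0.0106 to 0.220 over all alternatives.

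The gap junction, adhesion and polarity proteins that share the incisures and paranodes with E-cadherin mostly fell in both genotypes. Of 17 tested genes, 11 fell and 1 rose in c-Jun mutants, and 11 fell and 2 rose in controls, with a median difference of -0.83 in c-Jun mutants and -0.99 in controls. Claudin-19, Cldn19, a tight junction protein of the incisures and paranodes, fell, with differences of -3.74 in c-Jun mutants and -3.63 in controls. Mag, the adhesion protein of the inner myelin wrap, fell, with differences of -3.28 in c-Jun mutants and -2.90 in controls, and Cadm3, which in myelinated nerve binds the Schwann cell from the axon's side, fell, with differences of -2.50 in c-Jun mutants and -2.56 in controls. Gjb1, the connexin-32 of the incisures, was the 1 gene of this list that passed between the cut nerves. Its log2 signals were 8.61 and 8.48 in c-Jun mutant cut nerve, 7.66 and 7.66 in control cut nerve, 9.68 and 9.91 in c-Jun mutant uncut nerve, and 9.84 and 9.88 in control uncut nerve. Its genotype difference in cut nerve was 0.89 (adjusted p = 0.0160), in the same direction as that of Cdh1, and its interaction of 0.96 did not pass (adjusted p = 0.0840). The call in the cut nerves did not hold without c-Jun mutant cut replicate 1, either control cut replicate or the milk protein arrays. It was also lost with only the cut arrays fitted (adjusted p = 0.0602).

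**Figure D4:**
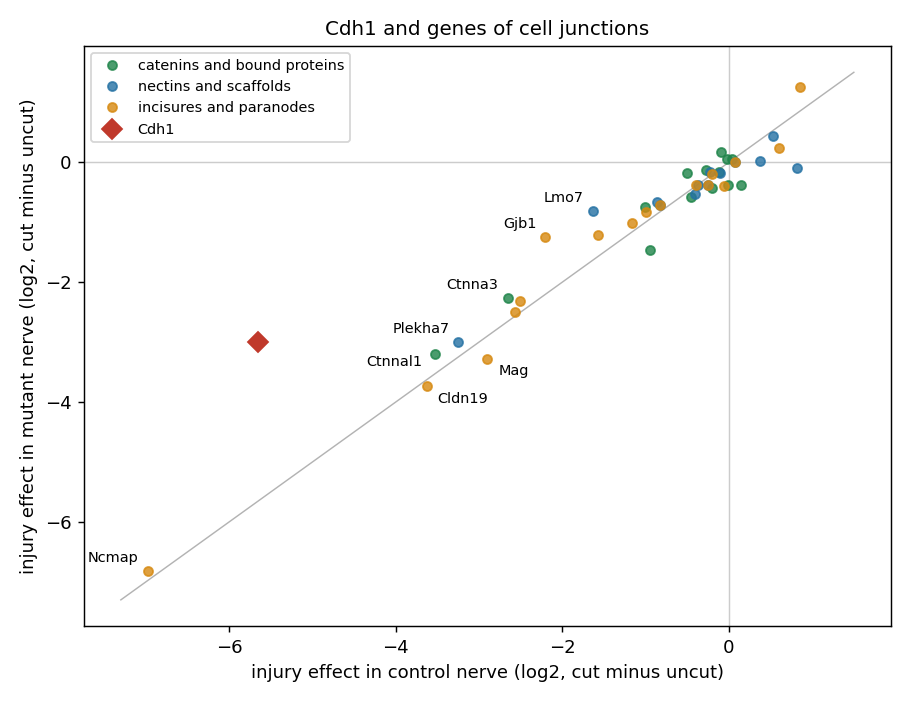
Injury difference in c-Jun mutants and in controls, in log2, for Cdh1 and for all tested genes of the catenin, nectin and scaffold, and incisure and paranode lists, with a line of equal change. Most of the other genes have similar differences in both genotypes, such as Plekha7 at -3.0 in c-Jun mutants and -3.25 in controls, while Cdh1 differs between them by 2.65.

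Known repressors of the E-cadherin gene were examined beside it. Of 13 tested repressors and activators of the gene, 2 rose and 1 fell after injury in c-Jun mutants, and 3 rose and 1 fell in controls, counts near or below the shares of all genes called. Snai1, a direct repressor, was too dim to be tested. Snai2, or Slug, rose by 0.56 in c-Jun mutants (adjusted p = 0.0304) and by 0.84 in controls (adjusted p = 0.00504). Its c-Jun mutant call was lost without either c-Jun mutant cut replicate, c-Jun mutant uncut replicate 1 or the milk protein arrays (adjusted p up to 0.154). Zeb1, a zinc finger repressor, had log2 signals of 11.55 and 11.45 in c-Jun mutant cut nerve, 12.15 and 12.12 in control cut nerve, 11.38 and 11.32 in c-Jun mutant uncut nerve, and 11.46 and 11.29 in control uncut nerve. The control cut arrays stood above all others. Zeb1 rose by 0.76 in controls (adjusted p = 0.000951), its injury difference in c-Jun mutants was 0.15 (adjusted p = 0.281), and it was lower in c-Jun mutant than in control cut nerve, a difference of -0.63 (adjusted p = 0.0342). With its probe sets averaged, Zeb1 rose by 0.34 in c-Jun mutants (adjusted p = 0.0440) and by 0.51 in controls. Its interaction of -0.61 did not pass (adjusted p = 0.252). The genotype call of Zeb1 was lost when any 1 of the 8 arrays was left out and with only the cut arrays fitted (adjusted p = 0.119). It was also lost when its probe sets were averaged (-0.26, adjusted p = 0.543). Its adjusted p over all alternatives ran from 0.0175 to 0.543. Zeb2 rose by 0.88 in c-Jun mutants (adjusted p = 0.0304), and its difference in controls was 0.55 (adjusted p = 0.122). The c-Jun mutant call of Zeb2 was lost without c-Jun mutant cut replicate 2, either c-Jun mutant uncut replicate or the milk protein arrays (adjusted p up to 0.165), and its control difference was called without control uncut replicate 2 (0.93, adjusted p = 0.0211). Twist2, a basic helix-loop-helix repressor, was the gene that fell, with differences of -0.58 in c-Jun mutants and -0.51 in controls, a control call lost without control cut replicate 1, control uncut replicate 1 or the milk protein arrays (adjusted p up to 0.108). Its c-Jun mutant call was lost without c-Jun mutant cut replicate 1 or c-Jun mutant uncut replicate 1 (adjusted p up to 0.0709).

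Of 19 tested proteins that cleave or recycle cadherins, 6 rose and 5 fell in c-Jun mutants, and 7 rose and 5 fell in controls. Between the cut nerves 0 were called, where 1.09% of all genes were. Adam10, the sheddase that cuts the outer part of E-cadherin and N-cadherin, fell, with differences of -0.67 in c-Jun mutants (adjusted p = 0.00155) and -1.25 in controls (adjusted p = 6.83e-05). Ptprf (LAR), a phosphatase found with the cadherin complex, fell, with differences of -1.55 in c-Jun mutants and -2.13 in controls. The membrane metalloproteinase gene Mmp14 rose by 1.69 in c-Jun mutants and by 1.79 in controls. Furin, which trims the precursors of cadherins and Adam10, rose by 0.64 in c-Jun mutants and by 1.02 in controls.

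Of the remaining cadherin genes few were above the filter. Among 14 other classical and type II cadherins, 4 were tested. Cdh15, the M-cadherin of muscle, rose by 0.70 in c-Jun mutants (adjusted p = 0.0251) and by 0.61 in controls (adjusted p = 0.0379), while 9 tested skeletal muscle markers averaged between 12.60 and 13.18 in c-Jun mutant cut, 12.50 and 12.78 in control cut, 10.85 and 11.66 in c-Jun mutant uncut, and 10.83 and 11.68 in control uncut nerve. Cdh15 is also 1 of those markers, and the part of muscle in its rise was not tested. Cdh4, the retinal cadherin, fell by 0.39 in controls (adjusted p = 0.0218), and its difference in c-Jun mutants was -0.25. The control calls of Cdh4 and Cdh15 were lost without control cut replicate 2 or either control uncut replicate, their adjusted p over all alternatives reaching 0.117 and 0.195. The c-Jun mutant call of Cdh15 was lost without c-Jun mutant cut replicate 2, c-Jun mutant uncut replicate 1 or the milk protein arrays (adjusted p up to 0.131). Cdh5, the VE-cadherin of endothelium, and Cdh20 did not pass. Of 5 tested desmosome genes, 4 fell in c-Jun mutants and 2, Perp and Pkp2, fell in controls, the call of Pkp2 lost without control cut replicate 2 or control uncut replicate 1 (adjusted p = 0.0577 and 0.0562). Of 15 tested protocadherins and atypical cadherins, 7 fell and 1 rose in c-Jun mutants, and 8 fell and 4 rose in controls. Pcdh20 rose by 1.46 in c-Jun mutants and by 2.83 in controls. Pcdh17 was the 1 gene of this list called between the cut nerves, at 5.91 and 5.97 in c-Jun mutant cut nerve and 6.83 and 6.89 in control cut nerve, a difference of -0.92 (adjusted p = 0.0149). Its interaction of -1.18 also passed (adjusted p = 0.0443). Array medians were 6.59 to 6.65, so Pcdh17 was dim and passed the filter through the control cut arrays, where it was highest. Both calls rest on that group and are descriptions, and the size of these differences is uncertain. The Pcdh17 call in cut nerve was lost without c-Jun mutant cut replicate 1, either control cut replicate or the milk protein arrays. It was also lost with only the cut arrays fitted (adjusted p = 0.0559). The call of the Pcdh17 interaction was lost without any 1 of the 8 arrays.

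E-cadherin is also a protein of gland and epithelial cells, whose markers varied between these nerves. Of 14 epithelial and gland markers 9 were tested, and Krt14, Cldn4, Cldn7, Esrp1 and Wap were too dim. Their mean log2 signal was 6.93 and 7.86 in c-Jun mutant cut nerve, 8.14 and 7.67 in control cut nerve, 8.30 and 8.12 in c-Jun mutant uncut nerve, and 6.31 and 6.33 in control uncut nerve. That mean was lowest in the control uncut arrays, but single markers differed. Krt19 had 8.05 and 7.80 there, above all cut arrays, which had 6.82 to 7.55. Between c-Jun mutant and control cut nerve 0 of the 9 were called, where 1.09% of all genes were. The milk protein gene Csn2 had 3.69 and 9.15 in c-Jun mutant cut nerve, 11.47 and 7.03 in control cut nerve, 13.01 and 10.33 in c-Jun mutant uncut nerve, and 3.50 and 4.14 in control uncut nerve. The part of epithelial or gland tissue in the Cdh1 result was not tested. The 2 cut arrays that had the higher Csn2 signal of their group were c-Jun mutant cut replicate 2 and control cut replicate 1. Without them, a choice made after seeing these values, the genotype difference of Cdh1 in cut nerve was 2.84. That left 1 array in each cut group, with Csn2 at 3.69 in c-Jun mutants and 7.03 in controls. The Csn2 signal was therefore not made equal, and no conclusion about gland tissue is drawn. After injury 4 of the 9 markers fell in c-Jun mutants (Krt19, Krt5, Krt7 and Cldn3) and 1, Krt18, rose, and in controls 0 fell and 2, Krt8 and Krt18, rose. Krt18, a keratin of simple epithelia, had 10.38 and 10.94 in c-Jun mutant cut nerve, 10.35 and 11.27 in control cut nerve, 8.79 and 9.31 in c-Jun mutant uncut nerve, and 6.05 and 5.75 in control uncut nerve. Krt8, its usual partner keratin, had 8.63 and 9.17 in c-Jun mutant cut and 9.18 and 9.92 in control cut nerve. In uncut nerve, where the genotypes lay further apart, it had 8.54 and 8.48 in c-Jun mutants and 5.73 and 6.13 in controls. Its injury differences were 0.39 in c-Jun mutants and 3.63 in controls, and its interaction of -3.24 was called (adjusted p = 0.0365). That call was lost without any 1 array other than c-Jun mutant cut replicate 2. The epithelial adhesion gene Epcam, named after its values were seen, stayed between 7.53 and 7.76 on all 8 arrays, unlike the called markers above.

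**Figure D5:**
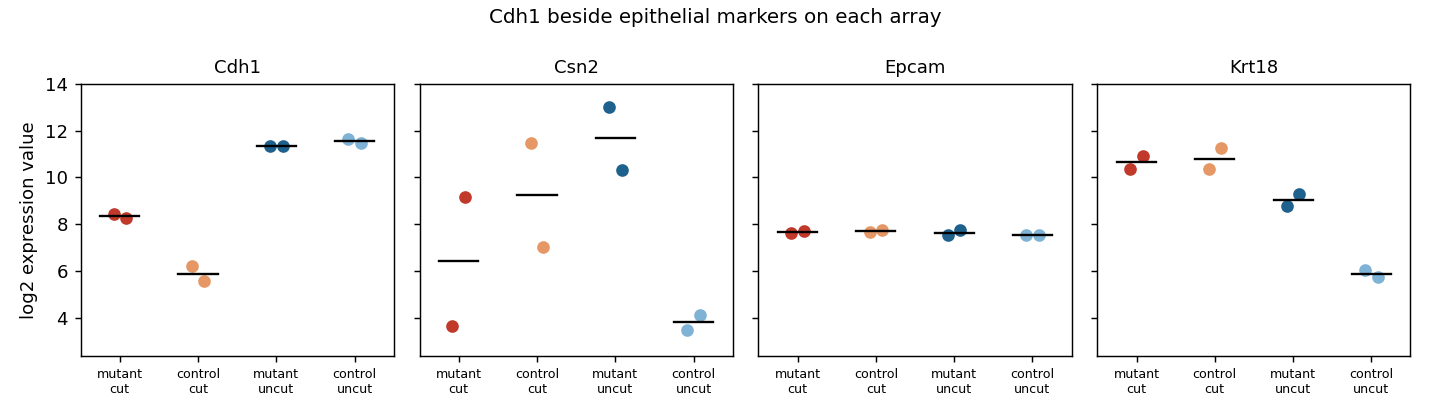
Log2 signal of Cdh1 and of epithelial and gland markers on each array, by group, with a bar at the group mean. Csn2 spans 3.50 to 13.01 and its 2 cut groups overlap, while the 4 groups of Cdh1 do not overlap. Epcam stays between 7.53 and 7.76, and Krt18 spans 5.75 to 11.27. Csn2 and Epcam were chosen after their values were seen, and Epcam does not stand for the other markers.

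Markers of Schwann cells themselves were also measured beside the cadherins. The mean log2 signal of 10 tested Schwann cell markers was 11.05 and 10.83 in c-Jun mutant cut, 10.81 and 10.71 in control cut, 11.20 and 11.44 in c-Jun mutant uncut, and 11.44 and 11.46 in control uncut nerve. That mean joins genes of opposite direction. After injury 3 of the 10 rose and 6 fell in c-Jun mutants, and 2 rose and 6 fell in controls. The median difference was -0.94 in c-Jun mutants and -1.45 in controls. In controls Ngfr rose by 3.93, while Pmp22, Mbp and Dhh had differences of -2.83, -2.38 and -2.01. Sox10, the transcription factor that marks all Schwann cell stages, had injury differences of -0.19 in c-Jun mutants and -0.04 in controls that did not pass. Between the cut nerves 2 of the 10 were called higher in c-Jun mutants and 0 lower, and 8 did not pass. The median difference was 0.18, and 0.380% of all genes were called higher there. Of the 2, the myelin gene Mbp was higher by 0.99 (adjusted p = 0.0212) and Egfl8 by 1.04 (adjusted p = 0.0227), the direction of Cdh1. Either call was lost in 6 of 19 alternatives, with adjusted p up to 0.115 for Mbp and 0.127 for Egfl8. Among the myelin genes described above, Ncmap, Fa2h and Drp2 differed between the cut nerves by 0.06, 0.06 and -0.08 and did not pass. The part of myelin gene levels in the Cdh1 difference was not tested. Of 10 macrophage markers, 9 rose in c-Jun mutants and 10 in controls, with median differences of 1.78 and 1.88. Endothelial, perineurial, mural and adipocyte lists had no gene called between the cut nerves, where 1.09% of all genes were called. Of the fibroblast list Thy1 was lower in c-Jun mutant cut nerve, a difference of -0.81 (adjusted p = 0.0160). That call was lost in 6 of 19 alternatives.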

How the data were processed

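Total RNA of 8 nerve pools was hybridised to Affymetrix arrays. The deposited table holds 1 log2 signal per probe set and array, made with RMA and the affy package per the submitters' processing notes (versions: not given in the sources used here). Among dim probe sets RMA makes differences smaller than they are. Detection calls were not used. Of 45101 probe sets, 34958 carry 1 symbol in the platform annotation, 932 several and 9211 none, and those with several or none were left out; 34754 probe sets matched current symbols, none of which changed. Kept probe sets exceeded their array's median on at least 2 arrays, and a gene took the values of its brightest kept probe set. Differences were fitted on the log2 values with limma 3.58.1 in R 4.3.3 (1 mean per group, all 8 arrays, 4 residual degrees of freedom, two-sided, Benjamini-Hochberg over 12094 genes, adjusted p under 0.05), and the script was tested on simulated data. Cdh1 was set against the other members by exact permutation tests; 5 such differences were planned and 4 were run, since Cdh6 did not pass the filter.

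The members and all gene lists were chosen with earlier results of these data known. From each list up to 4 genes called in control injury or between the cut nerves were eligible to be named, by size of change, and 5 (Cdh1) or 3 (other members) genes of nearest pattern. Ctnnb1, Ctnna1, Ctnnd1, Zeb2, Sox10, Cdh5, Cdh20, Fa2h, Drp2, Epcam, Csn2, Krt19, Krt5, Krt7 and Cldn3 were named after their values were seen. Alternatives changed the filter, the probe set rule, the normalization, the variance model, the arrays fitted, the replicate block and single arrays.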

Additional observations from a re-analysis of the deposited data

Results flagged for a closer look

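The effect of injury on Cdh1 differed between genotypes by a test of the difference itself. The injury difference was -3.0 in c-Jun mutants and -5.65 in controls on the log2 scale, and the first minus the second was 2.65 (SE 0.28, adjusted p = 0.0365). The call was lost when any of 5 single arrays was left out (adjusted p of 0.119 to 0.162). Cdh1 was higher in both c-Jun mutant cut arrays than in both control cut arrays. In this interaction 0.0661% of all genes were called in the same direction. The part played by the dimness of Cdh1 in control cut nerve was not tested.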

How the results depend on the processing

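The cadherins, the counts of genes called and the named genes with a printed difference were recomputed under up to 19 alternatives. The cause of a change was not tested, except where fewer arrays or genes entered by construction. Cdh1 kept its direction and call after injury in both genotypes and between the cut nerves in all of them: 2.12 to 2.84 between the cut nerves, and -3.08 to -2.92 (c-Jun mutants) and -5.98 to -5.33 (controls) after injury. Cdh19 kept both injury calls. Without single arrays the Cdh1 interaction was 2.33 to 2.97. Uncut nerve was the other side of the operated mice, but the main tests of injury treated cut and uncut pools as independent. The same numbers mark replicates in all groups, but nothing states what they share or which pools hold the same mice. The deviations of equally numbered arrays correlated at 0.0226 to 0.340 between groups. With the replicate block, Cdh2 after injury in controls was -0.38 and called (adjusted p = 0.0358), 4 genes were called between the uncut nerves, and no other member gained or lost a call.

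Relative to Cdh2, Cdh11, Cdh13 and Cdh19, the change of Cdh1 was -3.79, -5.03, -4.46 and -5.02 as well with exchange only within a genotype (exact permutation p = 0.0556) or within the replicate block (0.125), the smallest p each allows.

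Counts of genes called depended on the setting. In the interaction (20) there were 33 with no filter, 11 with the filter at the 75th percentile, 33 with averaged probe sets, 31 with a trended robust variance and 0 to 45 without single arrays. Between the cut nerves (132) there were 31 with only the arrays compared, 55 without the 2 cut arrays of higher milk protein signal and 13 to 111 without single arrays. Between the uncut nerves (0) there were 1 with averaged probe sets, 1 with probe sets as units, 9 with only the arrays compared, 9 without the milk protein arrays and 0 to 2 without single arrays. After injury, probe sets as units gave 7240 in c-Jun mutants (4348) and 8441 in controls (4879). For c-Jun mutants there were 2783 without the milk protein arrays and 2734 to 4260 without single arrays.

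Small member differences changed sign or side. Without single arrays, after injury Cdh2 in controls ran from -0.51 to -0.24 (called without either c-Jun mutant uncut array), Cdh6 in c-Jun mutants from 0.27 to 0.60 (called without c-Jun mutant cut replicate 2), Cdh13 in c-Jun mutants from -0.13 to 0.13 and Shroom3 in c-Jun mutants from -0.30 to 0.11. Between the cut nerves Cdh13 ran from -0.024 to 0.085 and Slc6a15 from -0.026 to 0.69. Between the uncut nerves Cdh2 ran from -0.22 to 0.14, Cdh6 from -0.068 to 0.19 and Cdh11 from -0.051 to 0.11. Jun ran there from -0.103 to 0.021 and was 0.020 with averaged probe sets. Sox10 after injury ran from -0.470 to 0.081 in c-Jun mutants and from -0.126 to 0.055 in controls. Interactions ran from -0.17 to 0.10 for Cdh19, -0.105 to 0.405 for Ncmap, -0.113 to 0.308 for Fa2h and -0.199 to 0.215 for Drp2, which was -0.014 with median centring and -0.0584 with quantile normalization. Averaged probe sets gave Cdh11 0.25 after injury in c-Jun mutants, and 0.036 for Cdh2 and -0.026 for Cdh11 between the uncut nerves. Cdh13 after injury in c-Jun mutants was -0.0012 with median centring, -0.012 with quantile normalization and -0.052 without the milk protein arrays, and between the cut nerves -0.0043 with median centring. Without the milk protein arrays Cdh2 after injury in c-Jun mutants was -0.71 (adjusted p = 0.0517). Signals near the array median, as for Cdh6 and for Cdh1 in control cut nerve, limit what can be measured.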
